A study of Caenorhabditis elegans with 12 samples.

Results

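The cytosolic heat shock genes examined here are *hsf-1*, *hsp-1*, *hsp-110*, *dnj-13*, *hsp-70*, *hsp-16.1*, *hsp-16.48*, *hsp-16.2*, *hsp-16.41* and *sip-1*, found by their symbols as 10 of the 21882 genes in the count table. All 10 passed the filter on low counts and were among the 15728 genes tested. The constitutive chaperone genes *hsp-1* and *hsp-110* were lower in *raga-1* mutants than in wild type (WT), at 0.741 and 0.652 of the WT level. In mutants carrying neuronal *raga-1* (rescue) they were at 0.610 and 0.554 of WT, and the co-chaperone gene *dnj-13* was also lower, at 0.744 of WT. Between rescue and mutant 0 of 10 genes passed the threshold, against 0.381% of all genes tested. That fit shares its estimate of the spread over all groups. With only mutant and rescue in the fit 556 of all genes were called and still 0 members, with adjusted p by edgeR of 0.0241 for *dnj-13* and 0.0490 for *hsp-1*. Of the calls against WT, that of *dnj-13* in rescue was lost in 18 of 25 alternative settings and that of *hsp-1* in the mutant in 8 of 25. Both were lost with replicate number or collection day as a block. The 4 *hsp-16* genes varied up to 21.3-fold between samples and none of them passed the threshold with edgeR on all 12 samples, while DESeq2 called *hsp-16.48* lower in the mutant than in WT. The transcription factor gene *hsf-1* differed little, between 41.9 and 53.1 CPM in all 12 samples. In total 2 of 10 genes were lower and 0 higher in the mutant than in WT, where 9.01% of all genes tested were lower and 6.36% higher, together 15.4%. In rescue against WT 3 of 10 were lower and 0 higher, where 13.5% of all genes tested were lower and 10.2% higher, together 23.7%. With library size alone in place of TMM, 2142 genes were higher and 1146 lower in that comparison, against 1602 and 2119, and still 0 members were higher.

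Heat shock proteins are chaperones that bind unfolded or damaged proteins in the cytosol and help them to fold again. The HSP70 proteins work in cycles of ATP hydrolysis that J-domain proteins start and that HSP110 proteins reset by releasing the nucleotide, while small heat shock proteins hold unfolded clients without ATP. In *C. elegans* the transcription factor HSF-1 drives the strong heat-induced members, such as the *hsp-16* genes and *hsp-70*, and it also serves growth and longevity at normal temperature.

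RNA was sequenced from whole mid-L4 larvae, fed HT115 bacteria with the empty L4440 vector, in 12 samples of about 1000 worms. There were 4 samples each of WT (N2), of the *raga-1(ok386)* deletion mutant, and of the rescue strain, which is the same mutant with an extrachromosomal array of *raga-1* cDNA under the *rab-3* promoter, followed by an SL2 spliced mCherry and the *unc-54* 3′ UTR. The RagA protein encoded by *raga-1* activates the kinase complex TORC1 when amino acids are present. The *rab-3* promoter is active in neurons, but the array was also seen in the intestine of adults, and rescue worms were picked by fluorescence onto a new plate before collection while the other strains were washed straight off. Strain and this handling cannot be told apart. The labels give no heat treatment, but all samples were thawed at 37 °C in each of 5 freeze-thaw cycles after they had been frozen in lysis reagent. Counting from the first date of collection, the 4 WT samples came from days 2, 4, 6 and 8 in the order of their replicate numbers, and those of the mutant and of rescue from days 1, 2, 4 and 6.

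Levels are CPM, the counts scaled to a common library size with TMM factors, and a mean is given with the SD of its group (n = 4). The genotype labels were checked on *raga-1* itself, which was at 61.8 to 70.2 CPM in WT, 1.42 to 1.76 CPM in the mutant and 805 to 891 CPM in rescue. Total counts ran from 14287496 to 35619409 per sample, so that 3 counts correspond to between 0.0842 and 0.210 CPM. The WT samples stood in pairs, with replicates 2 and 4 closer to each other than to replicates 1 and 3 over all genes. As whole animals were sequenced, fewer cells that express a gene and less RNA of it per cell cannot be told apart in any value below. Each adjusted p comes from the quasi-likelihood test of edgeR, adjusted after Benjamini and Hochberg over all 15728 genes, and a gene was called when it was under 0.01. The replicates came from independent egg lays.

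Per kb of annotated exon, *hsp-1* had the highest level in every group, at 1596 ± 165 CPM per kb in WT, 1183 ± 37.9 in the mutant and 974 ± 86.2 in rescue. In WT the next 5 genes in order were *sip-1* (238 ± 92.9 CPM per kb), *hsp-16.48* (205 ± 118), *hsp-110* (178 ± 18.5), *hsp-16.1* (127 ± 78.1) and *dnj-13* (121 ± 20.1). Neighbours in that run overlapped in their sample ranges. Below them came *hsp-16.41* at 42.8 ± 29.2, *hsp-16.2* at 31.9 ± 21.4 and *hsf-1* at 19.03 ± 1.88 CPM per kb, again overlapping from one to the next. The inducible *hsp-70* was the lowest member in all 3 groups, at 2.95 ± 2.23 CPM per kb in WT, 2.25 ± 1.24 in the mutant and 1.66 ± 1.42 in rescue, and it did not overlap with *hsf-1*. The order differed in the mutant, where *hsp-16.1* and *hsp-16.48* stood below *dnj-13* without overlap, at 36.1 ± 11.0 and 34.1 ± 10.3 CPM per kb. There *hsp-16.2* (11.6 ± 1.59 CPM per kb) and *hsp-16.41* (7.58 ± 2.36) stood below *hsf-1* (19.6 ± 0.439), also without overlap. These positions are a description, and no test was made between genes.

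**Figure D1:**
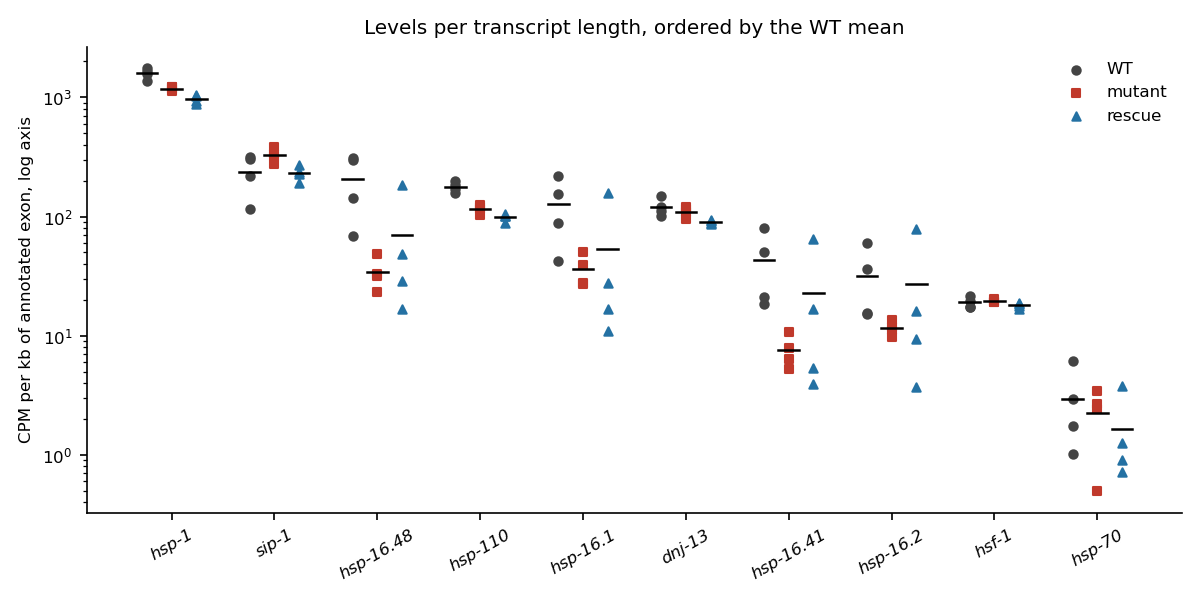
CPM per kb of annotated exon (log axis) for each of the 10 genes in the 4 WT (circles), 4 mutant (squares) and 4 rescue (triangles) samples, with a bar at each group mean and the genes ordered by the WT mean. *hsp-1* lies highest, between 873 and 1758 CPM per kb, *hsp-70* lowest, between 0.494 and 6.08 CPM per kb, and the *hsp-16* points are spread widely in WT and rescue.

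*hsf-1* (WBGene00002004, chromosome I, 11953507 to 11963085, minus strand, coordinates in WBcel235 throughout) encodes the master activator of the heat shock response. Its level was 43.4, 53.1, 43.5 and 48.7 CPM in WT replicates 1 to 4, 50.1, 47.8, 47.9 and 48.4 CPM in the mutant, and 41.9, 45.7, 46.4 and 43.7 CPM in rescue. WT overlapped both other groups, while all mutant samples lay above all rescue samples. The log2 fold change was 0.041 (95% confidence interval -0.11 to 0.19, adjusted p = 0.686) in the mutant against WT and -0.086 (-0.23 to 0.061, adjusted p = 0.339) in rescue against WT. Rescue against mutant gave -0.13 (-0.27 to 0.020, adjusted p = 0.361). Its biological coefficient of variation was 0.0842, lower than that of most genes, at the percentile 15.4 of all genes tested. The genes for proteins that bind HSF-1 and hold it inactive in *C. elegans*, *hsb-1*, *ddl-1* and *ddl-2*, had 0 of 3 calls in either direction in all 3 comparisons, by edgeR, DESeq2 and limma voom alike. At an unadjusted p under 0.05 edgeR gave 0 of 3 in the mutant against WT and 1 lower in rescue against WT, and their log2 fold changes lay between -0.16 and 0.22. For scale, an unadjusted p of 0.0384 by edgeR (*hsp-16.48*) in rescue against WT ranked 7090 of the 15728 genes tested.

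*hsp-1* (WBGene00002005, chromosome IV, 17278959 to 17281330, plus strand) encodes the constitutive cytosolic HSP70. It was at 2846, 3276, 3469 and 3644 CPM in WT replicates 1 to 4. Mutant replicates 1 to 4 held 2511, 2446, 2508 and 2343 CPM and rescue replicates 2146, 1930, 1811 and 2187 CPM. Every mutant sample lay below every WT sample and every rescue sample below every mutant sample. The means were 3309 ± 343, 2452 ± 78.5 and 2018 ± 179 CPM. The log2 fold change against WT was -0.43 (SE 0.088, adjusted p = 0.00366) in the mutant and -0.71 (SE 0.088, adjusted p = 9.79e-05) in rescue, both called. Between rescue and mutant the log2 fold change was -0.28 (95% confidence interval -0.47 to -0.090), which was not called (unadjusted p = 0.00763, adjusted p = 0.136). It was not called under any alternative either, with adjusted p from 0.0259 (limma voom) to 0.270 (edgeR without mutant replicate 2), and 0.0279 with DESeq2. Compared within a collection day, the mutant was below WT by -0.22, -0.39 and -0.57 (log2) on days 2, 4 and 6, and rescue by -0.56, -0.86 and -0.67. With collection day as a block in the fit, the mutant's difference from WT was -0.40 and was no longer called (adjusted p = 0.0190), while rescue was called there and in every other alternative (adjusted p up to 0.00193). The call in the mutant was also lost when WT replicate 3 (adjusted p = 0.0127), WT replicate 4 (0.0117), mutant replicate 2 (0.0130) or mutant replicate 4 (0.0130) was left out, and without both WT replicates 2 and 4 (0.0169). A snoRNA gene, *F26D10.24*, lies within *hsp-1* on the same strand.

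*hsp-110* (WBGene00016250, chromosome III, 8443910 to 8446909, minus strand) encodes the HSP110 protein that exchanges nucleotide on HSP70 and takes part in dissolving aggregates. WT replicates 1 to 4 held 425, 496, 460 and 542 CPM, mutant replicates 279, 335, 327 and 314 CPM, and rescue replicates 271, 272, 241 and 282 CPM. Both *raga-1* strains were below every WT sample, and the mutant and rescue ranges overlapped only between 279 and 282 CPM. This was the largest called difference among the 10 genes in both comparisons with WT. The log2 fold change was -0.62 (SE 0.085, adjusted p = 0.000379) in the mutant and -0.85 (SE 0.085, adjusted p = 2.59e-05) in rescue. It was called in both under all alternatives that were run, with adjusted p up to 0.00885 in the mutant and up to 0.00166 in rescue. Rescue against mutant gave -0.24 (95% confidence interval -0.42 to -0.050, unadjusted p = 0.0170, adjusted p = 0.194). On shared collection days the mutant was lower than WT by -0.35 to -0.60 (log2) and rescue by -0.64 to -1.04.

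*dnj-13* (WBGene00001031, chromosome II, 11545701 to 11547360, plus strand) encodes a class B J-domain protein of the cytosol that stimulates HSP70. It stood at 142, 169, 156 and 208 CPM in WT, at 132, 168, 161 and 154 CPM in the mutant, and at 129, 131, 123 and 120 CPM in rescue. WT and mutant overlapped, and all rescue samples lay below all others. The log2 fold change was -0.14 (95% confidence interval -0.37 to 0.097, adjusted p = 0.369) in the mutant against WT and -0.43 (SE 0.11, adjusted p = 0.00836) in rescue against WT. Rescue against mutant gave -0.29 (-0.52 to -0.058, unadjusted p = 0.0187, adjusted p = 0.202). The call in rescue was close to the threshold and was lost in 18 of 25 alternatives, among them library size alone in place of TMM (adjusted p = 0.0374) and the block for collection day (0.0558). Leaving out any rescue replicate, or WT replicate 2, 3 or 4, or mutant replicate 2, 3 or 4, was enough to lose it (adjusted p = 0.0111 to 0.0283). The gene lies within *dhgd-1*, which is on the opposite strand, and the strand setting of the counting is not given in the sources used here although the kit marks strand.

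*hsp-70* (WBGene00002026, chromosome I, 9320325 to 9322519, minus strand) encodes a heat-inducible cytosolic HSP70. Its level was 2.10, 6.06, 3.60 and 12.5 CPM in WT replicates 1 to 4, 1.02, 7.01, 5.45 and 5.03 CPM in the mutant, and 1.47, 1.86, 2.58 and 7.74 CPM in rescue. The ranges of the 3 groups overlapped in part, with the highest WT sample 5.95-fold above the lowest. WT replicate 4 lay above every other sample, and mutant replicate 1 and rescue replicates 1 and 2 lay below every WT sample. No comparison was called, with log2 fold changes of -0.41 (95% confidence interval -1.84 to 1.03, adjusted p = 0.677) in the mutant and -0.83 (-2.28 to 0.61, adjusted p = 0.348) in rescue, each against WT. *hsp-1* exceeded *hsp-70* by between 283 and 2473 times in CPM, in 2 transcripts of nearly equal exonic length (2073 and 2057 bases). *hsp-70* lies inside *uggt-2* on the opposite strand.

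**Figure D2:**
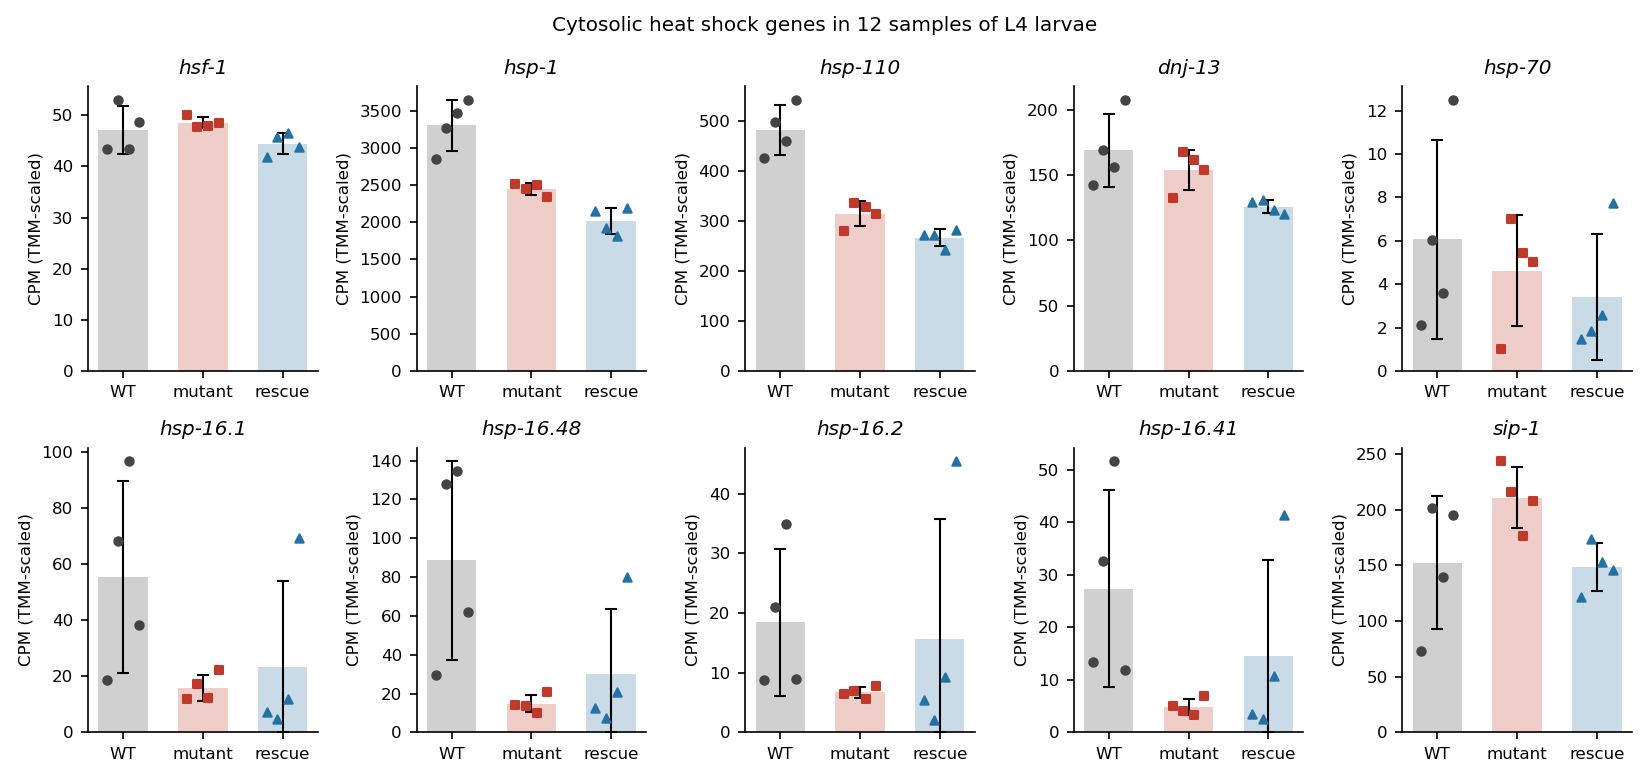
CPM after TMM scaling for the 10 genes, 1 panel each with its own axis from 0. Points are the samples of WT (circles), mutant (squares) and rescue (triangles), replicates 1 to 4 from left to right, bars are group means and error bars 1 SD, cut at 0 where they would go below it. *hsp-1* and *hsp-110* step down from WT to rescue without overlap with WT, while in the *hsp-16* panels rescue replicate 4 stands far above the other rescue samples.

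The *hsp-16* genes encode small heat shock proteins related to alpha-crystallin, and *hsp-16.2* is widely used as a reporter of heat stress. They lie on chromosome V as divergent pairs, in which 2 genes are transcribed away from a short stretch between them. *hsp-16.1* (WBGene00002015, 9087293 to 9087782, minus strand) and *hsp-16.48* (WBGene00002019, 9088131 to 9088617, plus strand) form one pair with 348 bases between them. *hsp-16.2* (WBGene00002016, 1804334 to 1804957, minus strand) and *hsp-16.41* (WBGene00002018, 1805178 to 1805875, plus strand) form the other pair with 220 bases between them.

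*hsp-16.48* had the highest level of the 4 in every WT sample, at 29.7, 128, 135 and 62.1 CPM in replicates 1 to 4. In the mutant it was at 14.3, 13.8, 10.1 and 20.8 CPM, and in rescue at 12.33, 7.19, 20.9 and 79.8 CPM. All mutant samples lay below all WT samples, while rescue replicate 4 reached above WT replicates 1 and 4. *hsp-16.1* was at 18.6, 68.3, 96.6 and 38.3 CPM in WT, 11.9, 17.1, 12.197 and 22.1 CPM in the mutant, and 7.39, 4.78, 12.05 and 69.1 CPM in rescue. The mutant overlapped WT only through its replicate 4, and the rescue samples fell into 3 below every WT sample and 1 above most of them. *hsp-16.41* was at 13.4, 32.6, 51.6 and 11.9 CPM in WT, at 5.08, 4.08, 3.37 and 6.86 CPM in the mutant, and at 3.43, 2.53, 10.78 and 41.4 CPM in rescue. Its mutant and WT ranges were apart, with rescue overlapping both. *hsp-16.2* was at 8.77, 21.03, 34.9 and 9.02 CPM in WT, 6.46, 6.86, 5.64 and 7.85 CPM in the mutant, and 5.43, 2.13, 9.28 and 45.5 CPM in rescue. Here too the mutant lay wholly below WT, and rescue spanned everything from the lowest to the highest of the 12 samples.

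None of the 4 passed the threshold in any comparison with edgeR on all 12 samples. In the mutant against WT the log2 fold change was -2.59 for *hsp-16.48* (95% confidence interval -4.12 to -1.07, adjusted p = 0.0164) and -2.51 for *hsp-16.41* (-4.27 to -0.74, adjusted p = 0.0360). For *hsp-16.1* it was -1.81 (-3.47 to -0.16, adjusted p = 0.0939), and for *hsp-16.2* -1.47 (-3.14 to 0.21, adjusted p = 0.175). In rescue against WT the values were -1.56 (adjusted p = 0.0853) for *hsp-16.48*, -1.24 (0.207) for *hsp-16.1*, -0.91 (0.368) for *hsp-16.41* and -0.24 (0.822) for *hsp-16.2*. Rescue against mutant gave 1.04, 0.57, 1.60 and 1.23 for the same genes in that order, with adjusted p from 0.329 to 0.725. The genes were among the most variable of all genes tested within groups, with biological coefficients of variation of 0.627 to 0.717, at percentiles 98.7 to 99.2. The threshold was passed for *hsp-16.48* in the mutant against WT with DESeq2 (adjusted p = 0.00218), with only these 2 groups in the fit (0.00668) and without WT replicate 1 (0.00879). The fit of only these 2 groups also called *hsp-16.41* (log2 fold change -2.49, adjusted p = 0.00951).

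Replicate 4 widened the spread in rescue but did not make all of it. The other rescue samples ran from 2.13 to 9.28 CPM for *hsp-16.2* and from 2.53 to 10.78 CPM for *hsp-16.41*. Without replicate 4, rescue against WT gave a log2 fold change of -2.77 for *hsp-16.1* (adjusted p = 0.00319) and of -2.71 for *hsp-16.48* (adjusted p = 0.00375), both called. *hsp-16.41* was then at -2.28 (adjusted p = 0.0171) and *hsp-16.2* at -1.71 (adjusted p = 0.0340). In rescue against mutant, leaving out replicate 4 moved the log2 fold changes to -0.96 for *hsp-16.1*, -0.25 for *hsp-16.2*, 0.22 for *hsp-16.41* and -0.12 for *hsp-16.48*, with none called. The SE of *hsp-16.48* in the mutant against WT, which rests on all groups, then went from 0.70 to 0.48, and *hsp-16.48* and *hsp-16.41* were called there (adjusted p = 0.00318 and 0.00857). The same library held *hsp-1* at 2187 CPM, *hsp-110* at 282 CPM and *hsp-70* at 7.74 CPM, the highest of the 4 rescue samples for each, but *hsf-1* at 43.7 and *dnj-13* at 120 CPM, which were not.

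Rescue replicate 4 was collected on day 6, as were WT replicate 3 and mutant replicate 4. In each of the 3 groups the library of day 6 was the highest of its group for all 4 *hsp-16* genes. None of the other 6 members had it highest in all 3 groups, although *hsp-1*, *hsp-110* and *hsp-70* did in rescue. Among all genes tested, 1.6% had the day 6 library highest in all 3 groups. Day 6 was singled out after the values were seen. The 4 genes moved together over samples (correlations below), so they do not count as separate observations. The summed level of the 4 genes on day 6 was 318 CPM in WT, 57.5 CPM in the mutant and 236 CPM in rescue, against 70.5, 41.8 and 16.6 CPM on day 2. Within a shared day the mutant was below WT for all 4 genes on days 2, 4 and 6, by a log2 difference of -0.12 to -3.66. Rescue was below WT on all 3 days for *hsp-16.1*, *hsp-16.41* and *hsp-16.48*, and on 2 of 3 days for *hsp-16.2*. The day holds 1 sample per group, and its part in these levels was not tested.

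**Figure D3:**
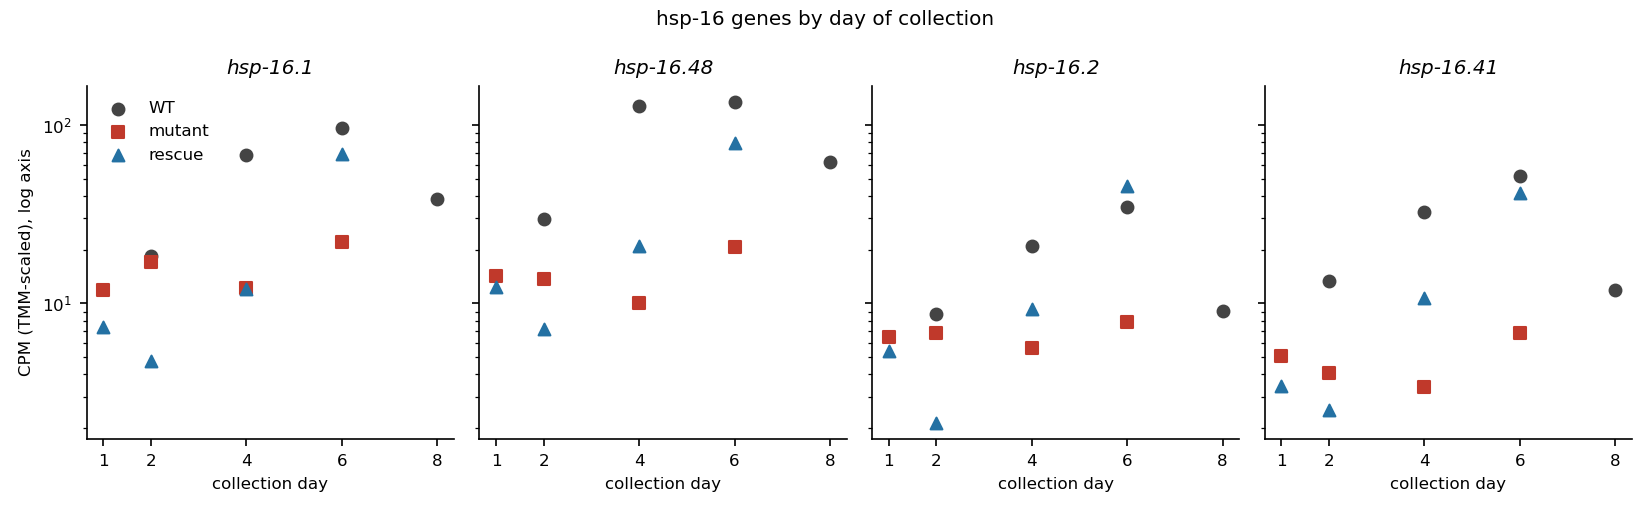
CPM (log axis) of the 4 *hsp-16* genes in the 12 samples, set against the day of collection, with WT as circles, mutant as squares and rescue as triangles. On day 6 each group has its highest value, with *hsp-16.48* at 135 CPM in WT, 20.8 CPM in the mutant and 79.8 CPM in rescue.

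The 4 genes moved together across samples. Over the 12 samples the Pearson correlation of log2 CPM between any 2 of them was 0.90 to 0.96, and 0.94 to 0.98 for the deviations from the group means, as a description over samples that share library and day. The balance within the pairs differed between groups. The ratio of *hsp-16.48* to *hsp-16.1* was 1.39 to 1.87 in WT, 0.806 to 1.201 in the mutant and 1.15 to 1.73 in rescue. For *hsp-16.41* to *hsp-16.2* it was 1.32 to 1.55 in WT, 0.595 to 0.874 in the mutant and 0.632 to 1.19 in rescue. In both pairs the plus strand gene was thus lower relative to its partner in all mutant samples than in all WT samples. These ratios were chosen after their values were seen and were not tested.

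Near-identical copies limit the values of one pair. *hsp-16.11* (WBGene00002017, 9090077 to 9090604, plus strand), a copy of *hsp-16.1* with a second exon of the same 312 bases, held 0 to 23 counts per sample. It took 0% to 6.01% of the counts of both genes together, and its 0 counts in mutant replicate 1 lie under the floor of 3 counts. Summing both genes changed no call. *hsp-16.49*, whose exons of 138 and 294 bases have the same lengths as those of *hsp-16.48*, was not analysed here, so the level under *hsp-16.48* may hold reads of both.

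*sip-1* (WBGene00004798, chromosome III, 10506106 to 10506801, minus strand) encodes a small heat shock protein of oocytes and embryos. It was at 73.5, 202, 139 and 195 CPM in WT replicates 1 to 4, at 243, 216, 176 and 207 CPM in the mutant, and at 121, 173, 152 and 146 CPM in rescue. All rescue samples lay below all mutant samples, and WT overlapped both groups. It was not called in any comparison, with log2 fold changes of 0.47 (95% confidence interval -0.078 to 1.01, adjusted p = 0.184) in the mutant and -0.041 (-0.58 to 0.50, adjusted p = 0.914) in rescue, each against WT, and -0.51 (-1.05 to 0.037, adjusted p = 0.325) in rescue against mutant. Without WT replicates 2 and 4, an alternative chosen after seeing the data, *sip-1* was higher in the mutant than in WT by 0.98 (adjusted p = 0.00494). The summed level of 9 oocyte markers, such as *rme-2* and *puf-5*, was 822, 2238.5, 1354 and 1902 CPM in WT replicates 1 to 4, 1980 to 2670 CPM in the mutant and 1547 to 2227 CPM in rescue. Yolk genes summed to 8162 and 9545 CPM in WT replicates 1 and 3 against 27285 and 25569 CPM in replicates 2 and 4. WT replicates 2 and 4 both exceeded replicates 1 and 3 in *sip-1*, *hsf-1*, *hsp-70*, *hsp-110* and *dnj-13*, which is 5 of 10 members against 31.7% of all genes tested. The part of these markers in the levels was not tested. The noncoding gene *F43D9.8* overlaps *sip-1* on the opposite strand.

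The comparison of mutant with WT asks what loss of *raga-1* does. That of rescue with WT asks what is left when the mutant carries the array. The array does not restore the WT level, as the mean of *raga-1* was 857 CPM in rescue against 66.3 CPM in WT, and it was also seen in the intestine of adults. That of rescue with mutant asks for the effect of the array. Both comparisons with rescue also hold the picking of its worms onto a new plate. The comparisons share samples, so their values are given side by side. Over the 10 genes the log2 fold changes had a median of -0.52 in the mutant against WT, -0.77 in rescue against WT and -0.18 in rescue against mutant, beside medians of 0.0031, 0.040 and -0.0023 over all genes tested. Log2 fold changes below 0 were found for 8, 10 and 6 of the 10 genes. The *hsp-16* genes enter these medians and counts separately, although they moved together over samples. Rescue against mutant had 0 of 10 called by edgeR, DESeq2 and limma voom (by edgeR 0.0763% of all genes tested were lower and 0.305% higher, together 0.381%). There *hsp-1*, *hsp-110* and *dnj-13* were at an unadjusted p under 0.05 by edgeR, a level that many more genes reached. By that p, *dnj-13* (0.0187) ranked 1459 and *sip-1* (0.0651) ranked 3150 of the 15728 genes tested. Tested for a difference of any kind between the 3 groups, 2 of 10 were called, *hsp-1* (adjusted p = 0.000265) and *hsp-110* (adjusted p = 5.25e-05), where 21.1% of all genes were called.

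Counted by samples alone, 5 of 10 genes had every mutant sample below every WT sample (*hsp-1*, *hsp-110*, *hsp-16.2*, *hsp-16.41* and *hsp-16.48*), as did 15.9% of all genes tested. The *hsp-16* genes among them moved together over samples and do not count as separate observations. *hsp-1*, *hsp-110* and *dnj-13* had every rescue sample below every WT sample, as did 18.3% of all genes. *hsf-1*, *hsp-1*, *dnj-13* and *sip-1* had every rescue sample below every mutant sample, as did 7.15% of all genes.

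**Figure D4:**
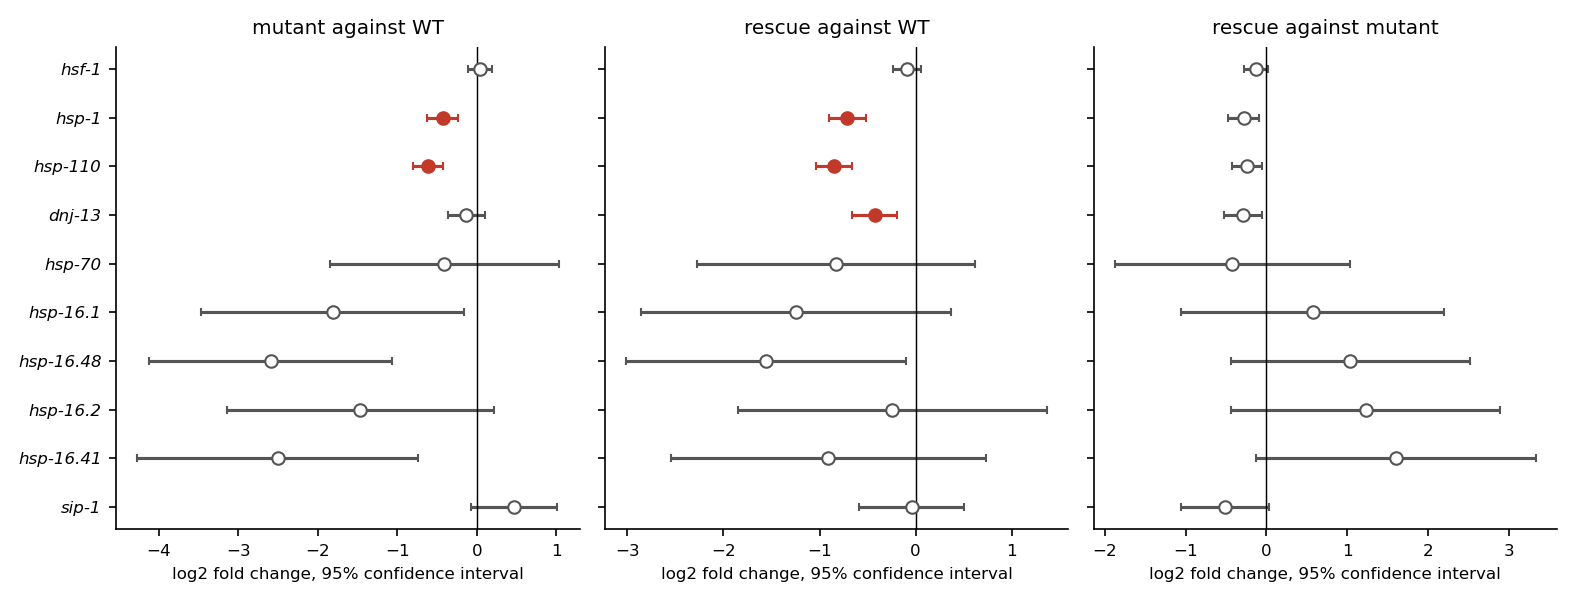
Log2 fold change of each gene with its 95% confidence interval in the 3 comparisons, from edgeR's fit of all 12 samples, with filled red points for genes called at an adjusted p under 0.01. *hsp-1* (-0.43 and -0.71) and *hsp-110* (-0.62 and -0.85) are called against WT in mutant and rescue, and the intervals of *hsp-70* and the *hsp-16* genes are the widest.

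Other cytosolic chaperones were looked at by lists. Of 8 genes for HSP90 and its co-chaperones, edgeR called 6 lower and 0 higher in the mutant than in WT. In rescue against WT it called 5 lower and 0 higher. Over all genes tested 9.01% were lower in the mutant and 13.5% in rescue. DESeq2 called 7 of the 8 lower in each strain and limma voom 5. In the mutant the largest called falls (log2 against WT) were in *sti-1* (-0.51), which links HSP70 and HSP90, *ahsa-1* (-0.50), which activates the ATPase of HSP90, and *unc-45* (-0.48), a myosin chaperone. In rescue they were in *sti-1* (-0.58), the HSP90 gene *daf-21* (-0.52, adjusted p = 0.00183) and *ahsa-1* (-0.48), and *daf-21* was at -0.38 (adjusted p = 0.0139) in the mutant. The list's median was -0.40 in the mutant and -0.43 in rescue.

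The chaperonin CCT folds actin and tubulin. By edgeR 6 of its 8 subunit genes were lower in the mutant and 8 of 8 in rescue, with medians of -0.37 and -0.46. Over all genes tested 9.01% were lower in the mutant and 13.5% in rescue. In the mutant DESeq2 called 7 of the 8 lower and limma voom 5, and in rescue both called 8. The largest falls in the mutant were in *cct-5* (-0.46), *cct-3* (-0.44) and *cct-8* (-0.39), and in rescue in *cct-3* (-0.53), *cct-7* (-0.48) and *cct-8* (-0.47). Between rescue and mutant 0 of 8 genes of either list were called by edgeR, DESeq2 or limma voom, and 0 had an unadjusted p under 0.05 by edgeR.

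Of 7 other genes of the cytosolic HSP70 machinery, 1 was lower by edgeR in both strains than in WT. Over all genes tested 9.01% were lower in the mutant and 13.5% in rescue. The gene was *bag-1*, a nucleotide exchange factor of HSP70, at -0.51 in the mutant (adjusted p = 0.00363) and -0.45 in rescue (adjusted p = 0.00547). DESeq2 also called 1 of the 7 lower in each strain. With limma voom 1 was lower in the mutant and 0 in rescue, so the call of *bag-1* in rescue was lost there. The inducible HSP70 genes *F44E5.4* and *F44E5.5* were at 0.55 and 0.48 in the mutant and at -1.07 and -0.61 in rescue, none called. Of 9 other small heat shock protein genes, 6 were tested and 0 were called in any comparison by edgeR, DESeq2 or limma voom. At an unadjusted p under 0.05 by edgeR, 0 were found in the mutant against WT and 2 were lower in rescue against WT. In rescue against WT such p-values were common over all genes, with 0.0384 by edgeR (*hsp-16.48*) at rank 7090 of 15728.

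The HSP70 and HSP60 genes of other compartments stood beside these. The mitochondrial *hsp-60* was lower by -1.25 in the mutant (adjusted p = 2.59e-07) and by -1.52 in rescue (adjusted p = 2.65e-08), and the mitochondrial *hsp-6* by -0.80 (adjusted p = 7.63e-06) and -0.98 (adjusted p = 1.45e-06). The endoplasmic reticulum gene *hsp-3* was lower in the mutant at -0.51 (adjusted p = 0.00328) and at -0.27 in rescue (adjusted p = 0.0491), and *hsp-4* was at -0.64 and -0.59 with neither called. *hsp-60* and *hsp-6* thus had larger log2 fold changes than *hsp-110* in both comparisons, without a test between genes.

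**Figure D5:**
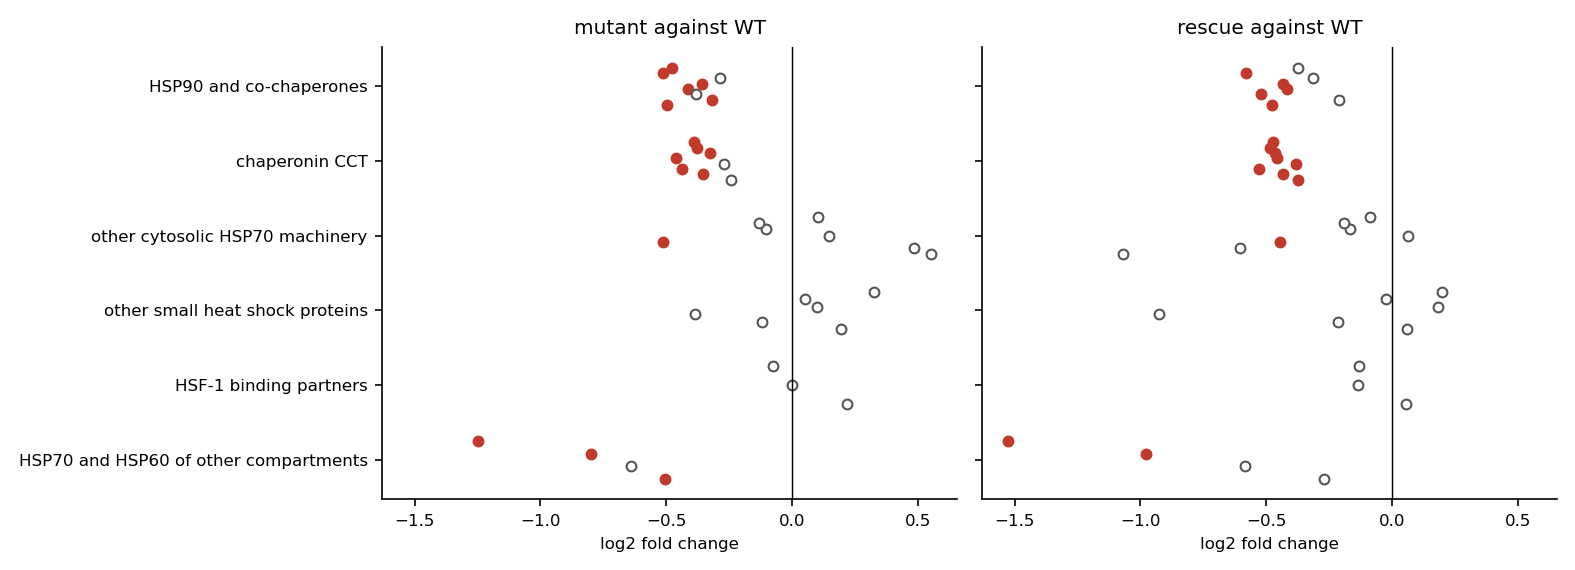
Log2 fold changes of other chaperone genes by list, in mutant against WT and in rescue against WT, with filled red points for genes called at an adjusted p under 0.01 and open points for the rest. All 8 CCT genes and all 8 HSP90 genes lie below 0 in both panels, and the other small heat shock proteins lie on both sides of it.

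Some markers of the germ line also differed in these comparisons. Of 10 sperm markers, edgeR called 5 lower in the mutant and 10 in rescue than in WT. Over all genes tested 9.01% were lower in the mutant and 13.5% in rescue. DESeq2 called 6 and 10 of these markers lower, and limma voom 4 and 10. *msp-31* was at -0.80 and -1.40 and *msp-3* at -0.77 and -1.30. The summed level of the 10 markers was 1308 to 1776 CPM in WT, 929 to 1237 CPM in the mutant and 688 to 815 CPM in rescue. In rescue against mutant edgeR called 1 of 10 lower, *gsp-3* at -0.42, where 0.0763% of all genes tested were lower. DESeq2 called 2 lower and limma voom 1. All 10 had a log2 fold change below 0 there (median -0.48), and 8 had an unadjusted p under 0.05 by edgeR. For scale, a p of 0.0651 by edgeR (*sip-1*) ranked 3150 of 15728 in that comparison. Of 8 germ cell markers, edgeR called 2 lower in the mutant and 4 in rescue than in WT, beside the same 9.01% and 13.5%. DESeq2 called 2 and 5 lower, and limma voom 2 and 4. The falls were led by *glh-1* (-0.67 and -0.72) and *pgl-1* (-0.38 and -0.41). The 8 markers summed to 2214 to 2413 CPM in WT, 1909 to 2002 CPM in the mutant and 1740 to 1920 CPM in rescue. Only 4 of the 8 were below 0 in the mutant (median -0.055) and 7 in rescue (median -0.26). In the mutant *glp-1* (0.17) and *gld-1* (0.16) were above 0, neither called. Of 9 oocyte markers and 5 yolk genes 0 were called in any comparison by edgeR, DESeq2 or limma voom. In the mutant against WT 5 oocyte markers had an unadjusted p under 0.05 by edgeR, all higher, and no yolk gene did. Such p-values were common in that comparison, where 0.0344 by edgeR (*hsp-16.1*) ranked 5760 of the 15728 genes tested. The sums of the sperm markers ran in the same order over the groups as *hsp-1* and *hsp-110*. Their part in the lower levels of *hsp-1*, *hsp-110* and *dnj-13* was not tested.

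The genes most like *hsp-1* over the 12 samples, by Pearson correlation of log2 CPM, were *T16A9.5* (r = 0.9751), *F55D12.6* (0.9749), *F32B6.4* (0.974), *cct-7* (0.972) and the sperm phosphatase gene *gsp-4* (0.966). With the group means removed these were 0.76, 0.75, 0.74, 0.92 and 0.88. Within the list itself *hsp-110* was nearest to *hsp-1* at 0.956 and *dnj-13* next at 0.785. With the group means removed *hsp-110* was at 0.64 and *dnj-13* at 0.45, the latter below *sip-1* (0.47) and *hsp-16.1* (0.46). The genes most like the mean of the 4 *hsp-16* genes were the peroxisomal acyl-CoA oxidase gene *acox-1.3* (r = 0.898), the ubiquilin gene *ubql-1* (0.898), *unc-45* (0.897), *T14G8.3* (0.880) and *cdr-4* (0.878). With the group means removed they were 0.86, 0.82, 0.88, 0.88 and 0.79. *hsf-1* had a correlation of 0.021 with that mean, the nearest to 0 among the other members. The points share library depth and collection day, and no p-value is given.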

How the data were processed

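The study ran its RNA-Seq reads through the bcbio-nextgen pipeline, checked alignments from STAR, estimated transcript abundance with Salmon and summed it to genes with tximport (WBcel235, Ensembl 94). The authors deposited expected counts per gene, not normalized, and a normalized signal per gene, which are the same counts rounded and divided by 1 size factor per sample. The versions and the strand setting are not given in the sources used here. Expected counts were rounded to whole numbers, and 0 columns were without a sample. Low genes were removed with filterByExpr of edgeR 4.0.16 (R 4.3.3), TMM factors were 0.951 to 1.08, and all 12 samples were fitted with a mean per group. The pairwise tests were two-sided. The common dispersion was 0.0299. On simulated data with 200 of 15611 genes changed by a factor of 2, edgeR recovered 67.5% in mutant against wild type and 65.5% in rescue against wild type. Correlations used log2 CPM with a prior count of 2. Coordinates and exon lengths come from Ensembl 115 (WBcel235), which names the genes called *hsp-16.11* and *hsp-16.49* here *hsp-16.1* and *hsp-16.48*, so genes were matched by the symbols and identifiers of the count table.

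The members and lists were chosen with earlier results of these data known. Named are all members, *hsp-16.11* and *hsp-16.49*, *raga-1*, up to 3 called genes per list with the largest change, all 4 HSP70 and HSP60 genes of other compartments, and the 5 genes most like *hsp-1* and like the *hsp-16* mean. Other genes are named as examples of their list and were chosen after their values were seen. Alternatives were DESeq2 1.42.0, limma 3.58.1 voom with group weights, other scalings and filters, blocks for replicate number and collection day, a threshold of 0.05, only 2 groups in the fit, summed copies, and leaving out samples. Mutant and rescue samples of the same number share a collection day, so their numbers pair them (correlation of deviations from the group means -0.14 to 0.15), but WT numbers mark other days. Intervals and floors cover counting or replicate error only.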

Additional observations from a re-analysis of the deposited data

Results flagged for a closer look

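In rescue, 1 sample stood far from the other 3 for 2 genes. *hsp-16.1* was at 69.1 CPM in rescue replicate 4, with a gap to the next sample that was 0.887 of the group's range. *hsp-16.2* was at 45.5 CPM in the same sample, with a gap of 0.835 of the range. Both gaps exceed Dixon's 95% critical value for 4 samples. Of 30 groups of 4 samples (10 genes in 3 strains) these 2 were above it, and chance puts about 1 in 20 groups there. The collection day and the handling of this sample are given with its values in the report, and their part in them was not tested.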

How the results depend on the processing

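Of the 30 log2 fold changes of the members, 5 were called. Over 740 alternative values 675 kept direction and side of the threshold, 26 were no longer called, 11 became called and 28 changed sign. None of the 28 belonged to a called value or was itself called. The number of members called for any difference among the groups was 4 with DESeq2, where 4693 of all genes were called. It was also 4 at a threshold of 0.05, where 5845 of the 15728 genes tested were called. When 1 sample was left out it was 2 to 5, with 2163 to 3453 of all genes called. In mutant against WT it was 1 with the replicate number as a block, 1 with collection day as a block and 4 at a threshold of 0.05. Over all genes 1961, 979 and 4578 were called under these settings. When 1 sample was left out, 1 to 4 members were called in mutant against WT, with 1434 to 2601 of all genes. In rescue against WT 2 to 4 members were called when 1 sample was left out, with 2702 to 4019 of all genes. In rescue against mutant the number of members called was 0 throughout. With the replicate block *hsp-1* in mutant against WT (adjusted p = 0.0116 by edgeR) and *dnj-13* in rescue against WT (adjusted p = 0.0124 by edgeR) were not called, and the block changed no other call. In the fit of only mutant and rescue, whose numbers pair the samples, it called 0 members. With only the 2 groups compared in the fit, *hsp-1* had an adjusted p of 0.0104 (edgeR).

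Changes of sign were all in small or widely spread values, and their cause was not tested. With collection day as a block, log2 fold changes were 0.0038 for *dnj-13* and 0.56 for *hsp-70* in mutant against WT, 0.083 for *hsp-70* and 0.16 for *sip-1* in rescue against WT, and -0.21 for *hsp-16.1* in rescue against mutant. Library size alone gave 0.011 for *hsf-1* and 0.055 for *sip-1* in rescue against WT, and the replicate block 0.0065 for *sip-1*. The voom fit gave 0.044 for *sip-1* in rescue against WT and -0.13 for *hsp-16.1* in rescue against mutant, and the paired fit of mutant and rescue also -0.13 for *hsp-16.1*. Without WT replicates 2 and 4 (chosen after seeing the data) values were 0.045 for *dnj-13* and 0.66 for *hsp-70* in mutant against WT, and 0.037 for *hsf-1*, 0.24 for *hsp-70* and 0.47 for *sip-1* in rescue against WT. Without WT replicates 1 and 3 they were -0.075 for *hsf-1* in mutant against WT and 0.074 for *hsp-16.2* in rescue against WT. With 1 sample left out, the range was -0.70 to 0.22 for *hsp-70* in mutant against WT, -1.71 to 0.27 for *hsp-16.2* and -0.27 to 0.12 for *sip-1* in rescue against WT, and -0.96 to 0.91 for *hsp-16.1*, -0.25 to 1.59 for *hsp-16.2* and -0.12 to 1.36 for *hsp-16.48* in rescue against mutant.

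Over all genes, 60 were called in rescue against mutant, and 7 to 556 under the alternatives. With collection day as a block and at a threshold of 0.05 the count went from 2418 to 979 and 4578 in mutant against WT, from 3721 to 1862 and 6095 in rescue against WT, and from 3318 to 1265 and 5845 for any difference. Without WT replicates 2 and 4 it was 4308 in mutant against WT. In mutant against WT the 1001 higher and 1417 lower genes became 960 and 956 with library size alone. The planned sum of *hsp-16.48* and *hsp-16.49* was not run. At 4 samples a group the *hsp-16* genes and *hsp-70* have intervals too wide to exclude large differences, and collection day overlaps with WT on only 3 days.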
